A study of Homo sapiens with 4 samples.

Results

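The 10 genes described here are published targets of the miR-200 family of microRNAs with roles in epithelial-mesenchymal transition or in the actin cytoskeleton: ZEB1, ZEB2, CFL2, QKI, FN1, MSN, SEC23A, WASF3, FHOD1 and PPM1F. They were picked by symbol as targets reported in other cells, at a time when earlier results of these data were known, so their shared direction is a description and not a test of a list set in advance. All 10 were found among the 26255 symbols of the deposited tables. RNA sequencing of the human lung fibroblast line MRC5, an established line of fetal origin labelled as normal and wild type, gave 4 libraries. By the treatment label 2 libraries came from cells given miRs and 2 from control cells with no treatment, all at 48 h by their titles. The labels do not name the microRNAs, so it is not known here whether a miR-200 was among them. The series title speaks of a negative-control microRNA, while the control label gives no treatment. Whether replicates are separate cultures is not stated, and the spread behind each p-value may thus be technical only.

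MicroRNAs are short RNAs that guide Argonaute proteins to messenger RNAs, mostly through pairing of the seed near their 5′ end with a stretch of the 3′ untranslated region (UTR), and so lower translation and RNA level. The miR-200 family is abundant in epithelia and scarce in mesenchymal cells such as fibroblasts. It is best known for a loop with ZEB1 and ZEB2: the microRNAs silence these repressors of epithelial genes, and the repressors in turn silence the microRNA genes. Its other known targets include proteins that build or move the actin skeleton.

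The family has 5 mature forms, shown here because their seeds define the sites searched for below (RefSeq, GRCh38.p14, 5′ to 3′, bases 2 to 8 in capitals).
miR-200b-3p: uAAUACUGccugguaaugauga
miR-200c-3p: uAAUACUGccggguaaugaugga
miR-429: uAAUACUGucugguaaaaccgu
miR-200a-3p: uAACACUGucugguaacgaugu
miR-141-3p: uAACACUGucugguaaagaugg
The first 3 share the seed AAUACUG and the last 2 the seed AACACUG, and the seeds differ by U4C, with positions counted from 1 at the 5′ end. The genes of miR-200b, miR-200a and miR-429 lie on chromosome 1 and those of miR-200c and miR-141 on chromosome 12. All 5 genes were listed at 0 FPKM in all 4 libraries. A library of polyadenylated messenger RNA does not measure mature microRNAs.

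The longest annotated 3′ UTR of each target (GENCODE 29) held at least 1 match to the AAUACUG seed, and 7 of the 10 also held a match to the AACACUG seed. Matches were read on the messenger strand as CAGTATT and CAGTGTT, and a match followed by A was counted as 8 bases long. In all there were 43 matches, 30 to the first seed and 13 to the second, and 23 of them were 8 bases long. Of the tested genes with a UTR, 19.5% held a match to the first seed and 21.9% a match to the second. The targets had 1.29 matches for every 1000 bases of UTR, against 0.267 over all tested genes. Such matches are part of why these genes were studied as targets, so their presence is no finding of these data.

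The sites below come from the 4 targets with the largest differences and, for contrast, from QKI and FHOD1, both with smaller differences. These sites are examples, all with a match of 8 bases, which the capitals mark. Each is named by the first base of the match, counted from the base after the stop codon.
ZEB1 at 369: attgttttatcttatCAGTATTAtcactct
ZEB2 at 455: cgcactacaatgcatCAGTATTAtgattcc
ZEB2 at 208: tgcaaaaattttgtaCAGTGTTAaggccta
CFL2 at 382: atggtcaacttttttCAGTATTAtttatag
SEC23A at 947: tggttcttattgaaaCAGTATTAtataatg
SEC23A at 211: ttattttgcttaccaCAGTGTTAtagctgg
QKI at 2592: agactttttttctgaCAGTATTAtgtaatt
FHOD1 at 122: gagccatgccttgagCAGTATTAgccgtgt
All 8 lie in 3′ UTRs. In GRCh38 the first 7 bases of these matches are at chr10:31527633-31527639 (plus strand) for ZEB1, at chr2:144388990-144388996 and chr2:144389237-144389243 (minus) for ZEB2, and at chr14:34712477-34712483 (minus) for CFL2. Those of SEC23A are at chr14:39032286-39032292 and chr14:39033022-39033028 (minus), that of QKI is at chr6:163573302-163573308 (plus) and that of FHOD1 at chr16:67229508-67229514 (minus). The expression values were made on another build, hg19, and are tied to these sequences by gene symbol only.

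**Figure D1:**
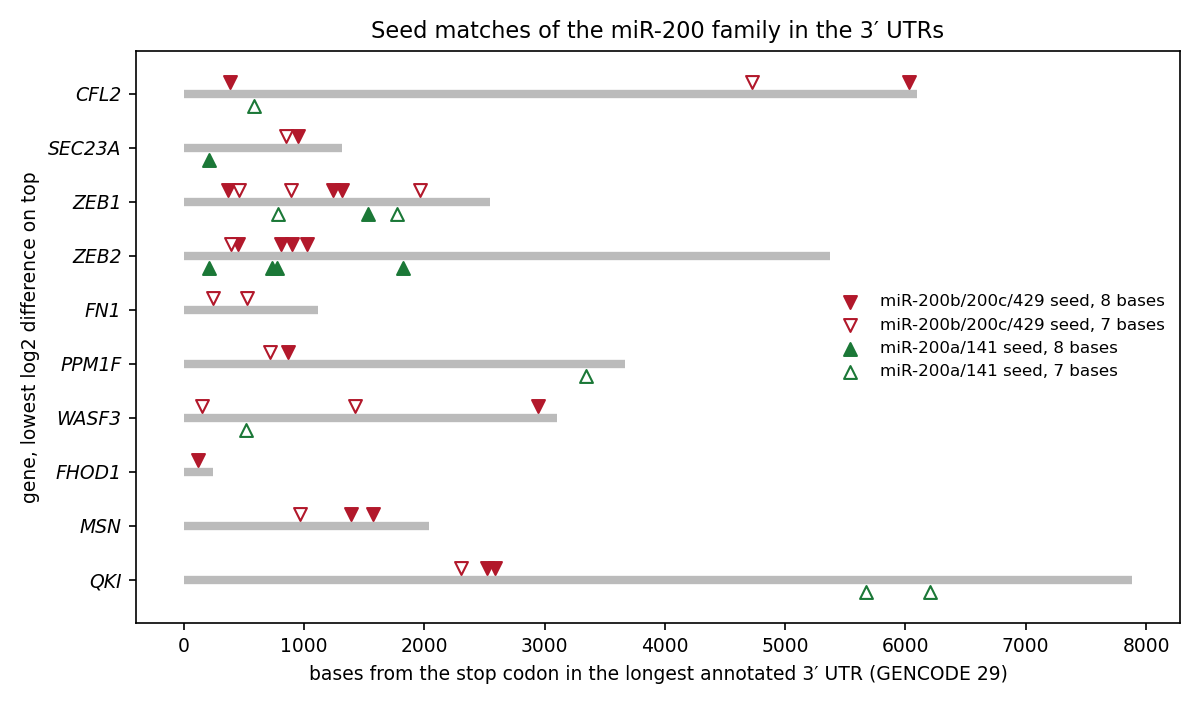
Positions of seed matches along the longest annotated 3′ UTR of each target (gray bar, from the stop codon, in bases), with red triangles above the bar for the AAUACUG seed and green triangles below it for the AACACUG seed, filled where the match is 8 bases long. ZEB1 and ZEB2 hold 9 matches each, and the UTR of FHOD1, 247 bases long, holds 1.

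Values are FPKM, that is, fragments scaled to transcript length and to the size of the library. Differences are miRs minus control on the log2(FPKM + 1) scale, which understates the change of low genes. They were tested with limma over the 11860 genes whose mean reached 1 FPKM. All 10 targets passed that minimum. In all 10 targets both miRs libraries lay below both controls, an arrangement found in 30.0% of all tested genes, while 0 of 10 were higher in both (29.5% of tested genes). In limma 0 of 10 passed a Benjamini-Hochberg adjusted p of 0.05, a level that 0.143% of tested genes passed as lower and 0.101% as higher. At an unadjusted p under 0.05, 6 of the 10 were lower (13.0% of tested genes) and 0 higher (11.2%). The median log2 difference of the targets was -0.71, against -0.0020 over all tested genes. The 10 split into 4 with a mean over 2-fold lower (CFL2, SEC23A, ZEB1 and ZEB2) and 6 with smaller differences.

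The adjusted p depended on which library was left out. Without miRs replicate 2, 7 of the 10 passed (16.3% of tested genes passed as lower), all but QKI, FN1 and MSN. Without miRs replicate 1, 5 passed (7.56% of tested genes), namely ZEB1, ZEB2, CFL2, SEC23A and PPM1F. Without either control library 0 of 10 passed in limma, and 5 were lower at an unadjusted p under 0.05 in each case. In these fits the lone library is assumed to vary like the pair of the other group. The miRs libraries lay further apart than the controls, with 725 against 71 tested genes over 2-fold apart, and an exact permutation test of 2 against 2 libraries cannot go below p = 0.333.

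**Figure D2:**
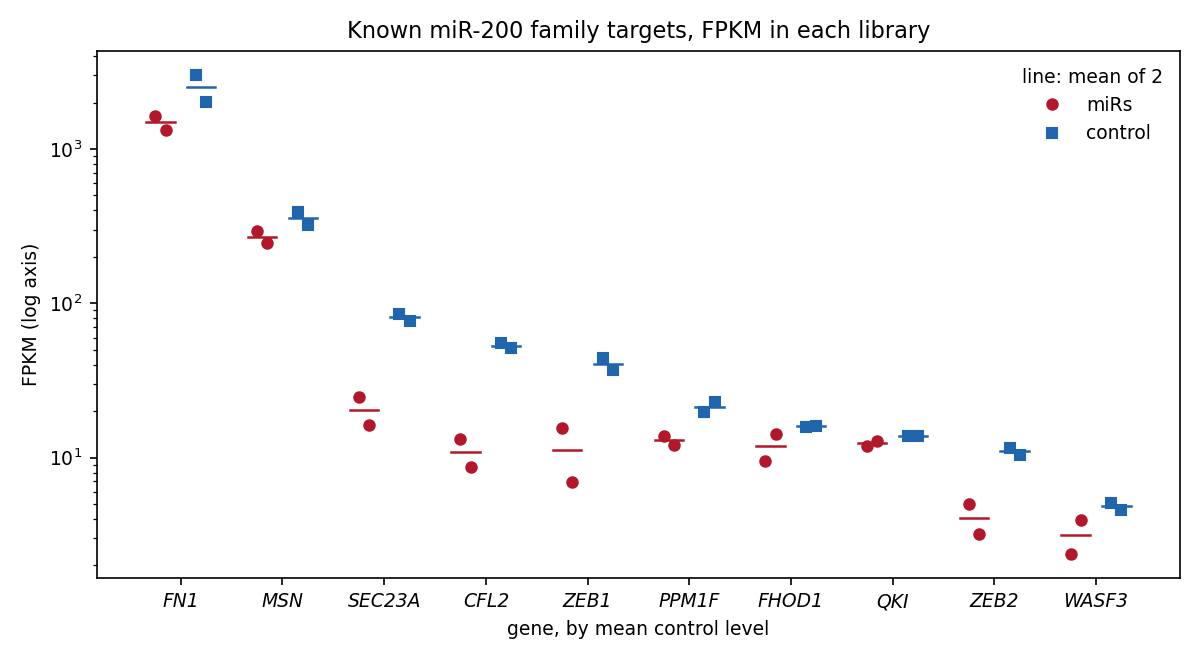
FPKM of the 10 targets in each library (log axis), miRs as red circles left of control as blue squares, with a line at the mean of each pair. In all 10 genes both miRs points lie below both control points, and the gap is widest in CFL2 and SEC23A.

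ZEB1 and ZEB2 are zinc-finger repressors that bind E-box sequences in epithelial promoters and hold cells in a mesenchymal state. ZEB1 was at 15.6 and 6.90 FPKM in miRs replicates 1 and 2, against 44.3 and 36.7 FPKM in control replicates 1 and 2. The miRs libraries were thus both low but 2.26-fold apart, the widest gap between them among the 10 targets. The log2 difference was -1.85 ± 0.38 (SE; adjusted p = 0.0950 in limma), with -1.32 in miRs replicate 1 and -2.39 in miRs replicate 2. ZEB2 was at 4.97 and 3.21 FPKM in miRs, against 11.5 and 10.5 FPKM in control, with no overlap and close controls. Its log2 difference was -1.26 ± 0.21 (adjusted p = 0.0846). ZEB1 made up 75.8% and 68.3% of the summed FPKM of the pair in miRs, against 79.4% and 77.8% in control, so ZEB1 remained the more abundant of the pair in every library. In ZEB2 all 4 matches to the AACACUG seed and 4 of its 5 matches to the other seed were 8 bases long. An antisense gene, ZEB2-AS1, lies opposite ZEB2, and the strand setting of the counting is not known here.

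CFL2 encodes cofilin 2, which severs and depolymerises actin filaments. It was at 13.1 and 8.63 FPKM in miRs, against 55.5 and 51.1 FPKM in control, so the lowest control library was 3.89 times the highest miRs library. This was the largest difference among the 10, at -2.22 ± 0.22 on the log2 scale (SE; adjusted p = 0.0632 in limma), and only 0.236% of tested genes had a lower one. SEC23A encodes a subunit of the COPII coat that buds vesicles from the endoplasmic reticulum. It was at 24.7 and 16.3 FPKM in miRs, against 84.9 and 77.2 FPKM in control. Its log2 difference of -1.96 ± 0.23 (adjusted p = 0.0632) was close to that of CFL2. The tie in adjusted p comes from the adjustment: 126 tested genes had an adjusted p at or under this value.

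FN1 encodes fibronectin, a matrix glycoprotein made in quantity by fibroblasts, and was the most abundant of the targets. It was at 1636 and 1334 FPKM in miRs, against 3029 and 2008 FPKM in control. The controls differed 1.51-fold from each other, and the difference between groups of -0.74 ± 0.25 (log2, SE) had an adjusted p of 0.176 in limma. Without control replicate 1 the difference was -0.44 and without control replicate 2 it was -1.04. FN1 was the only target with no match of 8 bases. PPM1F encodes a phosphatase that acts on the kinase PAK, an actin regulator. It was at 13.8 and 12.1 FPKM in miRs, against 19.9 and 22.8 FPKM in control. The log2 difference was -0.68 ± 0.15 (adjusted p = 0.0995), with the miRs libraries close together.

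MSN encodes moesin, which links actin to the plasma membrane. It was at 294 and 247 FPKM in miRs, against 389 and 321 FPKM in control, a log2 difference of -0.39 ± 0.17 (adjusted p = 0.251 in limma). The groups did not overlap, but miRs replicate 1 and control replicate 2 were only 1.09-fold apart. WASF3 encodes a subunit of the WAVE complex, which switches on branched actin assembly. It had 2.38 and 3.97 FPKM in miRs, against 5.06 and 4.59 FPKM in control (log2 difference -0.51 ± 0.23, adjusted p = 0.267). FHOD1, a formin that bundles and caps actin filaments, had 9.46 and 14.2 FPKM in miRs, against 15.8 and 16.1 FPKM in control (log2 difference -0.42 ± 0.21, adjusted p = 0.302). In both WASF3 and FHOD1 it was miRs replicate 1 that stood low, while miRs replicate 2 came close to the controls, at -0.23 and -0.15 from the control mean. QKI encodes an RNA-binding protein of alternative splicing and circular RNA formation. It showed the smallest difference, with 11.9 and 12.8 FPKM in miRs against 13.8 and 13.8 FPKM in control (log2 difference -0.15 ± 0.12, adjusted p = 0.492), though its UTR holds 5 matches. Of the tested genes 35.1% had a lower difference than QKI, and the FPKM of a gene sums its isoforms.

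**Figure D3:**
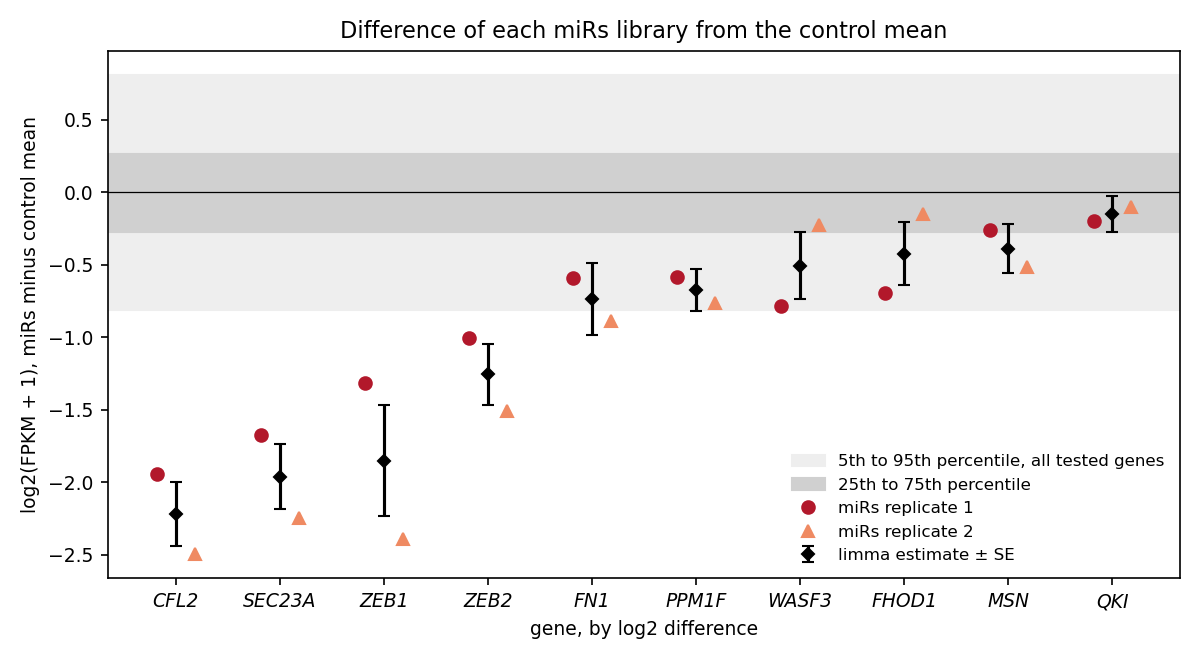
Difference of each miRs library from the mean of the controls on the log2(FPKM + 1) scale (red circle, replicate 1; orange triangle, replicate 2), with the limma estimate ± SE as black diamonds and gray bands for the 5th to 95th and 25th to 75th percentiles of all tested genes. CFL2, SEC23A, ZEB1 and ZEB2 lie below the wider band, which ends at -0.81, and QKI lies inside the narrower one.

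The order of levels among the targets also differed between the groups. In miRs, FN1 averaged 1485 FPKM, MSN 271 FPKM and SEC23A 20.5 FPKM, followed by PPM1F, QKI, FHOD1, ZEB1 and CFL2 between 13.0 and 10.9 FPKM, whose ranges over the 2 libraries overlapped, and by ZEB2 at 4.09 and WASF3 at 3.17 FPKM, which also overlapped. In control, FN1 averaged 2519, MSN 355, SEC23A 81.1, CFL2 53.3, ZEB1 40.5, PPM1F 21.3, FHOD1 15.9, QKI 13.8, ZEB2 10.99 and WASF3 4.82 FPKM, and no neighbours in that order overlapped. Levels set genes side by side per kilobase of transcript.

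The 2 miRs libraries did not rank alike for all targets. CFL2, SEC23A, ZEB1, ZEB2, FN1, MSN and PPM1F were lower in miRs replicate 2 and the remaining 3 were lower in miRs replicate 1. The control libraries showed much the same order. There 7 targets were lower in replicate 2 than in replicate 1, the same genes but with WASF3 in place of PPM1F. The interferon response, genes switched on by foreign RNA, differed strongly between the 2 miRs libraries. Its 16 listed genes summed to 10599 and 2175 FPKM in miRs replicates 1 and 2, against 111 and 132 FPKM in control. In all 16 both miRs libraries lay above both controls (29.5% of tested genes). The part of this response in the levels of the targets was not tested. Genes at high level tended lower as well: the 681 tested genes with a mean from 100 to 1000 FPKM, MSN among them, had a median log2 difference of -0.12, and the 75 genes above that, FN1 among them, one of -0.097. ACTB was at 3022 and 3679 FPKM in miRs, against 5648 and 5619 FPKM in control (log2 difference -0.76, adjusted p = 0.0937), GAPDH had a difference of -0.35 and VIM one of -0.50.

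All 10 fibroblast markers checked were expressed, including COL1A1, COL1A2 and VIM, and they summed to 6710.5 and 11571.5 FPKM in miRs, against 9950.1 and 10083 FPKM in control. The sums rest mostly on the collagens and VIM, while the median log2 difference of the list was -0.68. Of the 10, 5 lay below both controls (30.0% of tested genes) and 1 above (29.5%). In limma 0 passed the adjusted threshold, with 5 lower (13.0% of tested genes) and 1 higher (11.2%) at an unadjusted p under 0.05. FAP, a fibroblast surface protease, had a log2 difference of -1.64 and DCN, the matrix proteoglycan decorin, one of -1.50. LUM (lumican) had one of -1.32 and THY1, a fibroblast surface protein, one of -1.02, sizes between those of ZEB1 and FN1. The marker above both controls was S100A4, at 42.1 and 70.4 FPKM in miRs, against 20.7 and 34.5 FPKM in control. Groups overlapped in COL1A1 and COL3A1, with differences of 0.31 and 0.34, and in COL1A2 and PDGFRB, with -0.073 and -0.85. Of 7 smooth muscle and pericyte markers, 6 were tested and had a median log2 difference of -1.49. Of these, 4 lay below both controls (30.0% of tested genes) and 2 above (29.5%). The 7 summed to 95.2 and 102 FPKM in miRs, against 223 and 182.5 FPKM in control. In limma 0 of the 6 passed the adjusted threshold. At an unadjusted p under 0.05, 4 were lower (13.0% of tested genes) and 2 higher (11.2%). CNN1 (calponin, an actin-binding protein of smooth muscle) was at 11.3 and 17.5 FPKM in miRs, against 104 and 67.3 FPKM in control (log2 difference -2.49, adjusted p = 0.0635). LMOD1, which nucleates actin filaments in smooth muscle, had a difference of -2.61, NOTCH3 one of -1.92 and RGS5 one of -1.06. The 2 above both controls were DES, with a difference of 1.855, and CSPG4, with one of 0.41. The part of these marker lists in the levels of the targets was not tested. Of 10 epithelial markers, the lung genes SFTPC, SFTPB and NKX2-1 were at 0 in every library and CDH1 did not exceed 0.0356 FPKM. The list summed to 198 and 267 FPKM in miRs, against 29.9 and 32.1 FPKM in control, most of it from the keratins KRT18 and KRT19. KRT18 rose to 137 and 194 FPKM in miRs, against 17.7 and 19.4 FPKM in control, and KRT19 rose to 29.7 and 35.5 FPKM in miRs, against 6.15 and 6.05 FPKM in control (adjusted p = 0.0354 each in limma). Without control replicate 1 their adjusted p was 0.439 and 0.453, and without control replicate 2 it was 0.327 and 0.375. It was 0.0536 and 0.0525 with quantile normalization and 0.114 for each with no minimum FPKM. The part of the epithelial markers in the levels of the targets was likewise not tested. Of 5 endothelial markers 4 stayed under 1 FPKM (all but TEK), as did 5 of 6 blood markers (all but CD68). Their summed levels were 13.8 and 5.59 FPKM in miRs, against 13.6 and 11.02 FPKM in control, for the endothelial list, and 130.5 and 42.1 FPKM in miRs, against 53.8 and 57.6 FPKM in control, for the blood list. In bulk RNA, fewer cells of a type and less RNA per cell cannot be told apart.

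Paralogs of the targets have related proteins but UTRs of their own, some with seed matches: DSTN holds 2 matches to the AAUACUG seed, as many as SEC23A, RDX 1 to each seed, and PPM1E 2 to the AAUACUG and 5 to the AACACUG seed. Of 9 paralogs, 8 passed the expression minimum. In limma 0 of 8 passed the adjusted threshold and 3 were lower at an unadjusted p under 0.05 (13.0% of tested genes). In 4 of the 8 both miRs libraries lay below both controls (30.0% of tested genes) and in 0 above (29.5%), and their median log2 difference was -0.17. SEC23B, the other SEC23 protein, was at 32.7 and 21.2 FPKM in miRs, against 21.9 and 19.2 FPKM in control (log2 difference 0.34, adjusted p = 0.422). SEC23A accordingly made up 43.0% and 43.5% of the summed FPKM of both in miRs, against 79.5% and 80.1% in control. CFL1, the cofilin of non-muscle cells, was at 1022 and 986 FPKM in miRs, against 1422 and 1363 FPKM in control (-0.47, adjusted p = 0.123). Its processed pseudogenes make the level uncertain. DSTN, destrin, another actin depolymerising factor, was at 108 and 138 FPKM in miRs, against 167 and 160 FPKM in control (-0.41, adjusted p = 0.222). CFL2 thus made up 1.27% and 0.868% of CFL1 and CFL2 together in miRs, against 3.76% and 3.61% in control.

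Among the relatives of moesin, RDX (radixin) was the lower, at 15.01 and 13.5 FPKM in miRs, against 29.7 and 27.3 FPKM in control (log2 difference -0.95 ± 0.13, adjusted p = 0.0683 in limma). EZR (ezrin) was at 93.5 and 55.6 FPKM in miRs, against 73.3 and 62.9 FPKM in control, with overlapping groups. MSN made up 95.2% and 94.8% of the summed FPKM of MSN and RDX in miRs, against 92.9% and 92.2% in control. With EZR its share went the other way, at 75.9% and 81.6% in miRs, against 84.1% and 83.6% in control. Of the other WAVE proteins, WASF1 was at 6.45 and 9.26 FPKM in miRs, against 6.14 and 6.88 FPKM in control, and WASF2 at 33.6 and 49.6 FPKM in miRs, against 33.3 and 35.8 FPKM in control. Both pairs overlapped and their log2 differences were 0.22 and 0.24. FHOD3, a formin of heart and muscle, was at 2.34 and 0.730 FPKM in miRs, against 4.56 and 3.24 FPKM in control (-1.02, adjusted p = 0.198), with no seed match in its UTR. PPM1E, the relative of PPM1F, did not exceed 0.133 FPKM in any library and was not tested.

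**Figure D4:**
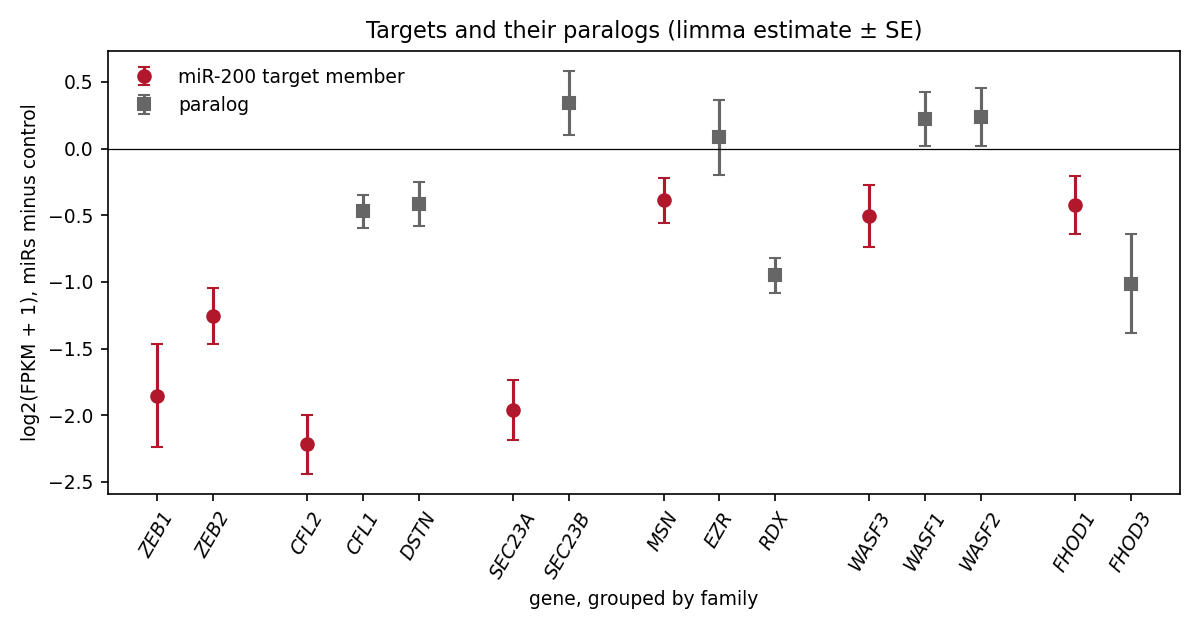
Log2 difference, miRs minus control, with its SE from limma, for targets (red circles) and their 8 tested paralogs (gray squares), grouped by family. The targets drawn are ZEB1, ZEB2, CFL2, SEC23A, MSN, WASF3 and FHOD1. The difference is -1.96 in SEC23A and 0.34 in SEC23B, and -2.22 in CFL2 against -0.47 in CFL1.

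A list of 30 epithelial genes reported as repressed by ZEB1 or ZEB2 was also followed. The part of ZEB1 and ZEB2 in the levels of these genes was not tested. In 17 of the 30 both miRs libraries lay above both controls and in 0 below, though 20 stayed under 1 FPKM in all 4 libraries. Of the 19 that missed the expression minimum but were above 0 in at least 1 library, 10 lay above both controls in both miRs libraries, against 18.1% of all such genes. Only 7 passed the expression minimum, which a rise in miRs helps a low gene to pass. All 7 lay above both controls in both miRs libraries (29.5% of tested genes). In limma 0 of these had an adjusted p under 0.05, and 6 were higher at an unadjusted p under 0.05 (11.2% of tested genes). SPINT1, an inhibitor of epithelial surface proteases, was at 2.79 and 4.08 FPKM in miRs, against 0.375 and 0.203 FPKM in control. SPINT2, of the same kind, was at 4.25 and 4.003 FPKM in miRs, against 0.975 and 0.755 FPKM in control (adjusted p = 0.0667 for SPINT1 and 0.0632 for SPINT2 in limma). CLDN7, a claudin, had a log2 difference of 1.37 and DSP, the desmosome protein desmoplakin, one of 1.49 (adjusted p = 0.0754 and 0.0863). CDH1, the E-cadherin gene and the textbook target of both repressors, was at 0 in both miRs libraries, against 0.0356 and 0 FPKM in control. ESRP1, GRHL2, CLDN3 and CDH3 were listed at 0 in all 4 libraries. Of 12 other transcription factors of mesenchymal cells, 11 were tested, with a median log2 difference of 0.045. Of these, 4 lay below both controls (30.0% of tested genes) and 2 above (29.5%). There 0 passed the adjusted threshold in limma. At an unadjusted p under 0.05 only FOXC1 was lower (13.0% of tested genes) and only TWIST2 higher (11.2%). FOXC1 was at 2.05 and 1.48 FPKM in miRs, against 5.44 and 3.99 FPKM in control, and TWIST2 at 24.1 and 14.6 FPKM in miRs, against 9.31 and 10.5 FPKM in control. PRRX1 had a log2 difference of -0.39 and SOX9 one of 0.49.

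Partners of the actin targets were lower more often than higher. Of 34 actin regulators (among them WAVE and Arp2/3 subunits, formins, and cofilin kinases and phosphatases), all tested, 20 lay below (30.0% of tested genes) and 5 above (29.5%) both controls in both miRs libraries, and the median log2 difference was -0.24. In limma 0 passed the adjusted threshold, with 13 lower (13.0% of tested genes) and 1 higher (11.2%) at an unadjusted p under 0.05. The actin-monomer binder TWF1 had a log2 difference of -1.12 and gelsolin (GSN) one of -0.70, and the formin DIAPH1 one of 0.56. Of 12 fibronectin receptors and matrix partners, 8 lay below and 1 above, read against the same 30.0% and 29.5%, with a median of -0.40. ITGB3, an integrin subunit that binds fibronectin, was at 2.28 and 0.880 FPKM in miRs, against 8.61 and 6.27 FPKM in control (adjusted p = 0.0880), and ITGA5, a subunit of the main fibronectin receptor, was the one above, at 462 and 253 FPKM in miRs against 197 and 154 FPKM in control (adjusted p = 0.181). The focal adhesion proteins TLN1 and VCL had differences of -0.63 and -0.51.

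The partners of SEC23A were centred near all tested genes. Among 12 genes of the COPII coat and its cargo, all tested, 4 lay below, a share near the 30.0% of all tested genes. Above lay 1 (29.5% of tested genes), and the median was -0.0061. MIA3, the collagen cargo receptor of COPII, was at 16.1 and 15.8 FPKM in miRs, against 9.92 and 10.9 FPKM in control (log2 difference 0.57, adjusted p = 0.102 in limma). SAR1B, the GTPase that starts the coat, had a difference of -0.48, SEC13 one of -0.23 and SAR1A one of 0.46, the last with overlapping groups. Among 10 splicing factors of epithelial-mesenchymal transition, listed as partners of QKI, 7 were tested, with 3 below, 4 above (30.0% and 29.5% of tested genes) and a median of 0.051. MBNL1 was at 25.3 and 22.5 FPKM in miRs, against 44.5 and 41.4 FPKM in control (-0.82, adjusted p = 0.0809), RBFOX2 at 28.98 and 32.7 FPKM in miRs, against 47.9 and 48.5 FPKM in control (-0.63, adjusted p = 0.0950), while MBNL2 had a difference of -0.39 and PTBP1 one of 0.25. In neither list did a gene pass the adjusted threshold. At an unadjusted p under 0.05 there were 1 lower and 1 higher in the first and 2 lower and 0 higher in the second. Over all tested genes the shares at that level were 13.0% lower and 11.2% higher.

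In a second list of 45 genes reported as miR-200 targets in other cells, both directions were about as common as among all genes. Of its 39 tested genes, 12 lay below (30.0% of tested genes) and 11 above (29.5%) both controls in both miRs libraries, with a median log2 difference of 0.066, against -0.71 for the 10 targets. In limma 0 passed the adjusted threshold, with 7 lower (13.0% of tested genes) and 6 higher (11.2%) at an unadjusted p under 0.05. RECK, a membrane inhibitor of matrix metalloproteinases, was at 6.31 and 4.26 FPKM in miRs, against 24.2 and 26.3 FPKM in control (log2 difference -2.08 ± 0.20, adjusted p = 0.0618), close to that of CFL2. RASSF2, a Ras-association protein, was at 1.12 and 1.05 FPKM in miRs, against 4.39 and 4.55 FPKM in control (-1.39, adjusted p = 0.0632). Its UTR holds no match to either seed. ETS1, a transcription factor, stood the other way at 40.5 and 42.6 FPKM in miRs, against 20.9 and 22.2 FPKM in control (0.91, adjusted p = 0.0674), although its UTR holds 2 matches to the AAUACUG seed, as that of RECK does. MAML3, a coactivator of Notch, was at 3.94 and 2.96 FPKM in miRs, against 0.847 and 1.12 FPKM in control, also with no match. The 30 tested genes of this list with a match to either seed had a median of -0.061, and the other 9 had 0.12.

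Over all tested genes, seed matches went with little difference in level. The 2110 genes with a match to the AAUACUG seed had a median log2 difference of -0.012, against 0.0061 for the 8688 without. The medians were -0.0065 with 1 match (1612 genes), -0.052 with 2 (379 genes) and -0.0014 with 3 or more (119 genes). With a match to the AACACUG seed the median was -0.0036 (2366 genes). Both miRs libraries lay below both controls in 36.1% of the genes with 3 or more matches, 35.4% with 2, 31.5% with 1 and 29.3% with 0. The targets are counted in these shares and in those by UTR length below. They are 6 of the 43 such genes with 3 or more matches, 3 of the 134 with 2 and 1 of the 508 with 1. No share was taken without them, so the rise with the number of matches is not independent of the targets. Genes with more matches have longer UTRs (median 6506 bases with 3 or more, 1114 bases with 0), so the share was also taken by UTR length. It was 28.6% with a match and 28.3% without for UTRs up to 592 bases, 32.4% and 27.1% up to 1392 bases, 33.3% and 29.8% up to 2770 bases, and 32.3% and 33.6% above that. CFL2 had the lowest log2 difference of the 119 genes with 3 or more matches, ZEB1 ranked 2 and ZEB2 ranked 4, while WASF3, MSN and QKI ranked 19, 29 and 47. Genes are not replicates, and these values describe the libraries. The UTR isoforms used in MRC5 cells are not known from these files.

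**Figure D5:**
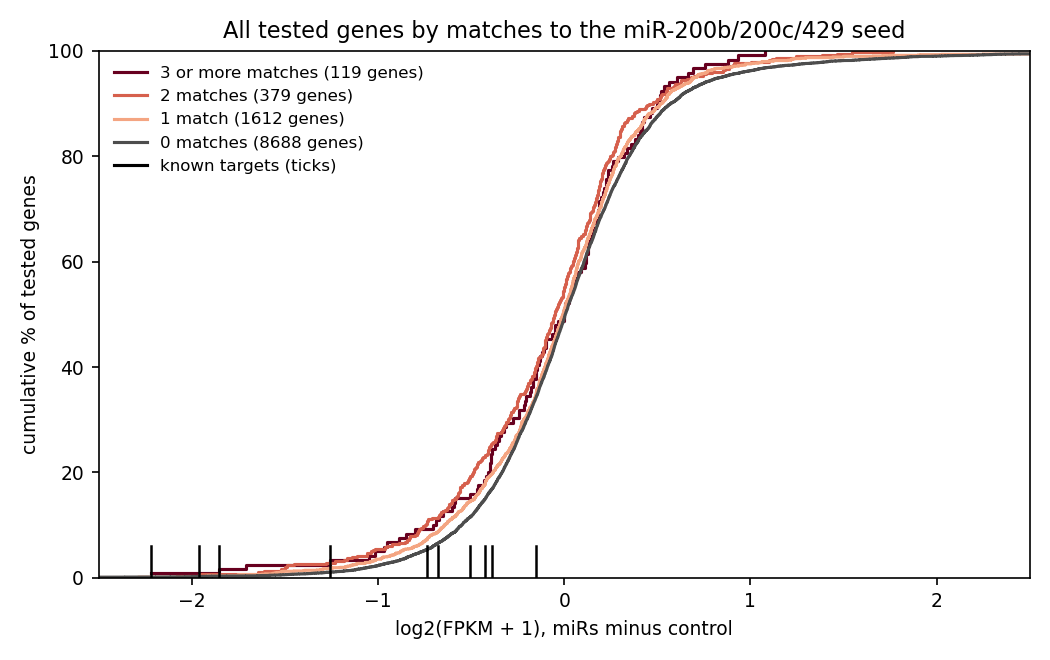
Cumulative percentage of tested genes by log2 difference, miRs minus control, split by the number of matches to the AAUACUG seed in the longest 3′ UTR (0, 1, 2, or 3 and more), with black ticks for the 10 targets. The 4 curves run close together, with medians between -0.052 and 0.0061, while the ticks run from -2.22 to -0.15.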

How the data were processed

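Each deposited table gives FPKM by gene symbol for 1 library, per the file headers. Tools listed in the submitters' processing notes are Cuffdiff 2.2.1, SAMtools 0.1.18, TopHat2 2.1.1 and Bowtie2 2.2.8, with the build hg19. The sources used here give no gene annotation, strand setting or library scaling. The TruSeq Stranded mRNA kit was used, per the labels' protocols. The read depth is unknown. The lowest values (below 0.3 FPKM) gave a worth of 1 fragment, relative to control replicate 1, of 0.896 and 1.02 in miRs replicates 1 and 2 and 1.05 in control replicate 2. No whole reads were recovered, since steps depend on transcript length, so no count test was run.

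Groups came from the treatment label. Genes whose mean over all 4 libraries reached 1 FPKM entered limma 3.58.1 (R 4.3.3) on log2(FPKM + 1) with a variance trend, 2-sided, Benjamini-Hochberg adjusted over all tested genes, threshold 0.05. No scaling was added. The procedure was tested on simulated data in which both groups had the same spread. In these libraries the miRs pair lay further apart, so the simulation does not check the procedure for that case. Members and lists were chosen with earlier results of these data known. All members and paralogs were named, and in each other list described up to 4 tested genes with the smallest p and any past the threshold. Of these 1 is not reported here, the interferon list is given by its sum and counts alone, and the epithelial markers by those past the threshold. Alternatives were another pseudocount, other minimums, 2 rescalings, no variance trend, a replicate block and each library left out. Other names were chosen after their values were seen. UTRs came from GENCODE 29 by symbol (10798 tested genes, 91.1%; minimum 20 bases) with Python 3.11.15.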

Additional observations from a re-analysis of the deposited data

How the results depend on the processing

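The log2 differences of the 10 targets kept a negative sign in all 109 results under the alternatives run (pseudocount 0.1, no minimum or 5 FPKM, median-of-ratios or quantile scaling, no variance trend, replicate block, each library left out). Of these, 14 passed the adjusted threshold. The median of the targets lay between -0.83 and -0.61 with 1 library left out. Targets called lower numbered 0 to 7 with 1 library left out. With the replicate number as a block they numbered 2 (CFL2 and SEC23A, adjusted p = 0.0468 each). The block has 1 residual degree of freedom, and same-numbered libraries deviated together with a correlation of 0.201. With 2 numbers only, this does not pair the samples. Over all genes the calls were 17 lower and 12 higher, and moved to 58 and 41 with the replicate block, 4 and 2 with quantile normalization, 0 and 0 with no minimum FPKM (limma, 1761 lower and 1577 higher at an unadjusted p under 0.05), 11 lower with no variance trend, and 0 to 1930 lower and 0 to 1816 higher with 1 library left out. The cause was not tested. With 1 library left out, signs turned for EZR (-0.29 to 0.46; -0.023 without control replicate 2), SAR1A (-0.038 to 0.96), WASF1 (-0.010 to 0.45) and WASF2 (-0.038 to 0.51). All 10 targets held a match with the UTR of the longest coding transcript, and 9 with matches of 8 bases only. With 2 libraries a group, precision is limited by their number.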

Other observations

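Apart from the genes named so far, the lowest log2 differences among the 498 tested genes with 2 or more matches to the AAUACUG seed included BDKRB2, a bradykinin receptor, and CHRM2, a muscarinic acetylcholine receptor. These genes were chosen after their values were seen. BDKRB2 fell to 5.66 and 7.34 FPKM in miRs, against 28.4 and 27.3 FPKM in control (log2 difference -1.95 ± 0.16, adjusted p = 0.0486 in limma), and its UTR holds 2 matches. Its adjusted p was 0.476 without control replicate 1 and 0.470 without control replicate 2, 0.118 with no minimum FPKM, 0.0561 with quantile normalization and 0.0557 with no variance trend. CHRM2 was at 12.5 and 27.7 FPKM in miRs, against 59.8 and 66.8 FPKM in control (adjusted p = 0.102). SNTB2, a syntrophin whose UTR holds 3 matches, was at 4.598 and 5.61 FPKM in miRs, against 10.6 and 12.0 FPKM in control. Its log2 difference of -1.01 ranked 6 among the 119 genes with 3 or more matches. Among the 498 it was not one of the lowest: RND3, with 2 matches, had a difference of -1.61. Genes with no match to either seed reached lower values: CEMIP, a hyaluronan-degrading protein, was at 5.85 and 19.1 FPKM in miRs, against 72.4 and 127 FPKM in control (log2 difference -3.05, adjusted p = 0.0911).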
